A study of Mus musculus with 24 samples.

Results

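The 8 genes described here are those of cholesterol efflux and of the liver X receptors (LXR): the sterol exporters Abca1 and Abcg1, the lipid carriers Apoe and Pltp, the receptors Nr1h3 (LXRα) and Nr1h2 (LXRβ), and the LXR targets Mylip and Lpcat3. They were chosen by name, with earlier results of these data known, and all 8 were found among the 55359 rows of the table of counts. Transcripts had been counted by 3′ tag sequencing, which reads a short stretch near the end of each transcript, in 24 wells of cultured mouse oligodendrocytes. All wells held cells of C57BL6/J pups with no genetic change in the labels, taken from the cortex at postnatal days 5 to 7, sorted with magnetic beads for O4, which immature oligodendrocytes carry on their surface, and differentiated for 3 days with the thyroid hormone triiodothyronine. The next 3 days were spent without ethanol or in ethanol at a steady concentration. Experiment 1 compared 6 wells at 30 mM with 6 control wells, and experiment 2 compared 6 wells at 10 mM with 6 control wells. The labels call the experiments batches, so dose and batch cannot be told apart. Controls stood in an incubator of their own, which therefore cannot be told apart from ethanol. The labels call the wells biological replicates and do not say whether they came from separate pups.

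LXRα and LXRβ are nuclear receptors that sense oxysterols, oxidised forms of cholesterol, and bind DNA as pairs with retinoid X receptors. When a cell holds surplus cholesterol they raise the transcription of exporters and carriers, and cholesterol leaves the cell on particles that carry apolipoprotein E. In the brain these particles are made mostly by astrocytes, and by microglia that have taken up myelin debris, while oligodendrocytes use large amounts of cholesterol to build myelin.

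The DNA element classically bound by an LXR pair is a direct repeat of AGGTCA with a gap of 4 bases, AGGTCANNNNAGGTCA. It was searched on both strands in the 250 bases before the start of each gene, taken from RefSeq (GRCm38.p6). Of the 8 genes, 7 (all but Abcg1) had an entry, with 10 starts in all. Positions farther from the start or within a gene were not searched, so the search cannot show that a gene lacks the element. Only the promoter of Abca1 held a match with at most 3 mismatches among the 12 fixed bases, and 18.5% of 32841 mouse promoters of this length held one as well. No promoter of the 7 genes held the single repeat AGGTCA without mismatch, against 14.0% of all promoters. The promoters of Abca1 and of Apoe are shown because these are the exporter and the carrier whose counts were the largest here, with the Abca1 match, which reads on the opposite strand and spans 67 to 52 bases before the start, in capitals. The Apoe sequence is that of the outermost of its 3 listed starts. The first lies at chr4:53159896-53160145 and the second at chr7:19699189-19699438, both on the minus strand, and both are written 5′ to 3′ toward the start.
Abca1: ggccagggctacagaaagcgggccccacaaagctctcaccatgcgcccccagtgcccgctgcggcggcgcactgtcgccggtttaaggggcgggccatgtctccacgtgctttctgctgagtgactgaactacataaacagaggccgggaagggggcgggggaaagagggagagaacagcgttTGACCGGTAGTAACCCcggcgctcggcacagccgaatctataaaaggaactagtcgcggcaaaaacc
Apoe: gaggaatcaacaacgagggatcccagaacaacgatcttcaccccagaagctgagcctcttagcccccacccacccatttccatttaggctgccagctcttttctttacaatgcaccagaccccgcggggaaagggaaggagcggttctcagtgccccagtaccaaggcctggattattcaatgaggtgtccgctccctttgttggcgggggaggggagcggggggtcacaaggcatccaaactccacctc
A match describes letters only, and receptor binding was not measured in these wells.

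Wells held 1184609 to 1817028 counts each. A count of 3, taken as the floor, equalled 1.67 to 2.50 counts scaled per 1e6 (CPM), which covers counting error only. Among 60 pairs of wells from the same group none agreed within sampling noise (largest chi-square p of counts 2.1e-10). The oligodendrocyte label was checked with 12 markers such as Mbp and Mog, and none was at 0 in a whole group. Their sum was 7084 to 8675 CPM in the controls of experiment 1 and 6456 to 8375 CPM in those of experiment 2. Markers of other brain cells were counted too, and their sums stand beside the genes they moved with.

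Apoe, the main cholesterol carrier of brain lipoproteins, was the gene of the 8 that rose at 30 mM ethanol. It was read at 3634, 4630 and 4700 CPM (lowest, median and highest well) in the controls of experiment 1 and at 4666, 5929 and 6476 CPM at 30 mM. All 30 mM wells but 1 lay above every control, and that well, replicate 1, lay among them, so the groups overlapped. The mean went from 4449 ± 410 to 5739 ± 621 CPM (SD, n = 6 each), or from 0.434% to 0.564% of all counts. The log2 fold change was 0.38 (SE 0.0652, 95% interval 0.24 to 0.51, adjusted p = 7.02e-05 by edgeR's quasi-likelihood test with Benjamini-Hochberg adjustment over 13235 genes). Without the 30 mM well of replicate 1 it was 0.43 (edgeR adjusted p = 8.48e-08), the highest of the 12 fits that each left out 1 well. The lowest of these was 0.33, and the largest edgeR adjusted p was 0.000485. Among the controls replicate 6 stood low, at 3634 CPM against 4435 to 4700 CPM.

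The other tested genes did not pass at 30 mM, and 1 of 6 tested genes was called where 9.67% of all genes tested were called (3.02% higher and 6.65% lower). Abca1, which loads cholesterol onto lipid-poor apolipoproteins, was read at 173, 213 and 240.3 CPM in controls and at 209, 232 and 269 CPM at 30 mM. Of the 30 mM wells 2 exceeded all controls, and the other 4 lay among them. Its log2 fold change was 0.15 (95% interval -0.00 to 0.30, edgeR adjusted p = 0.225). Abcg1, which exports cholesterol to more mature particles, had means of 28.6 ± 6.19 and 30.4 ± 3.92 CPM (SD, n = 6 each) and a log2 fold change of 0.09 (95% interval -0.21 to 0.38, edgeR adjusted p = 0.774).

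The receptors themselves were not called at 30 mM. Nr1h2, the receptor form found in most tissues, had a log2 fold change of 0.06 (95% interval -0.18 to 0.31, edgeR adjusted p = 0.797). Nr1h3, the form typical of macrophages and liver, was counted only 87 times over the 6 controls and 58 times over the 6 wells at 30 mM. Its log2 fold change was -0.42 (edgeR adjusted p = 0.352), and its 95% interval of -0.96 to 0.12 shows how little these counts could resolve. Lpcat3, an enzyme that remodels membrane phospholipids, stood at -0.02 (95% interval -0.29 to 0.25, edgeR adjusted p = 0.953).

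The 2 remaining genes were too low to test at 30 mM. Mylip, the ubiquitin ligase that marks lipoprotein receptors for degradation, was counted 52 times in all over the controls and 29 times over the 30 mM wells. It lay between 4.04 and 7.99 CPM in controls, and between 0.738 and 3.29 CPM in all 30 mM wells but replicate 2, which reached 7.90 CPM. Pltp, a plasma phospholipid transfer protein, had 1, 5, 4 and 5 counts in the controls of experiment 1, at 30 mM, in the controls of experiment 2 and at 10 mM. Every Pltp well lay at or under the floor of 3 counts, which 1 well at 10 mM reached, so no fold change is given.

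**Figure D1:**
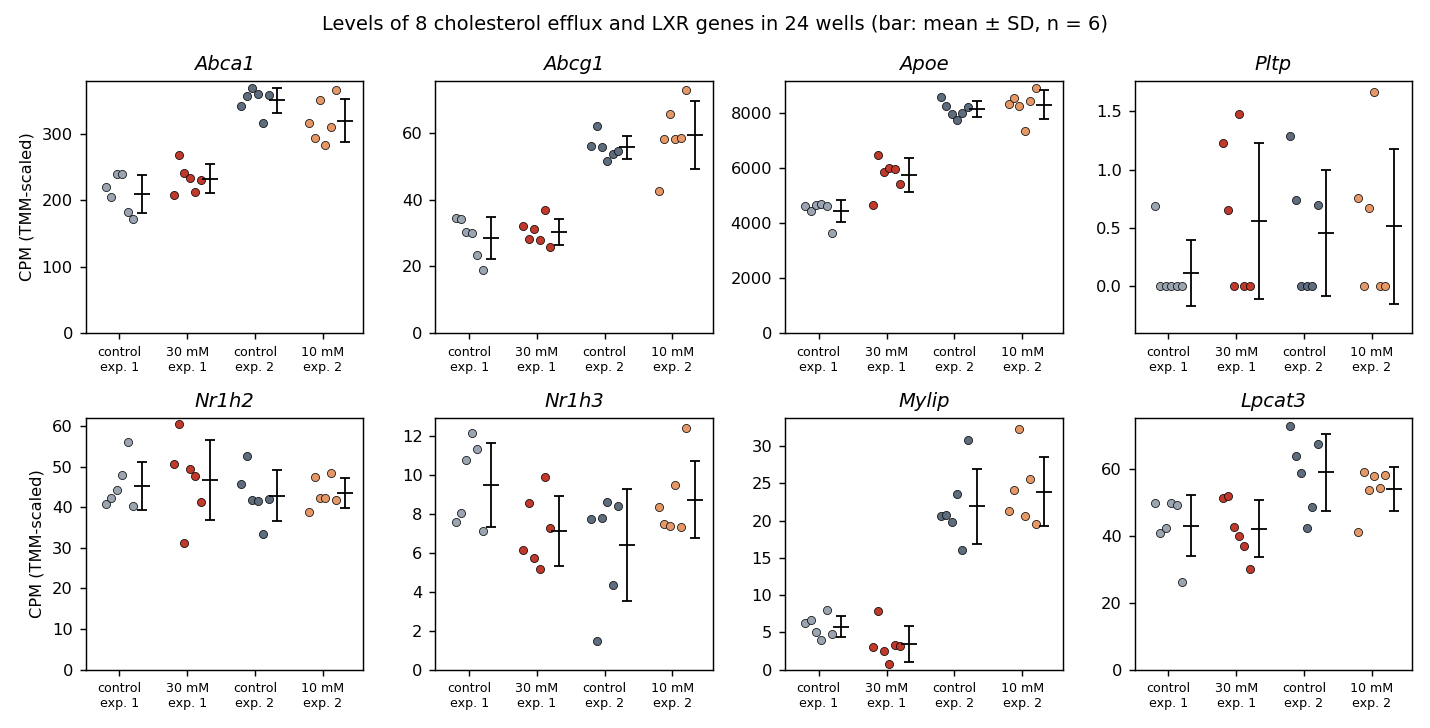
Level in CPM (y axis, a scale for each gene) of the 8 genes in each of the 24 wells, by group (x axis), with the mean and SD of 6 wells beside the points. Apoe lies at 3634 to 4700 CPM in the controls of experiment 1, 4666 to 6476 CPM at 30 mM, and 7361 to 8912 CPM over both groups of experiment 2; Pltp is at or under the floor throughout.

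At 10 mM ethanol none of the 7 tested genes was called, where 0.657% of all genes tested were called (0.391% higher and 0.266% lower). Apoe was read at 7762, 8118 and 8604 CPM in the controls of experiment 2 and at 7361, 8395 and 8912 CPM at 10 mM. The ethanol wells included both the lowest and the highest value of the experiment. The log2 fold change of Apoe was 0.02 (SE 0.0496, 95% interval -0.08 to 0.12, edgeR adjusted p = 0.947), so that the upper end of the interval at 10 mM lay under the lower end at 30 mM.

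Abca1 was the gene of the 8 with an unadjusted p under 0.05 at 10 mM, and it did not pass adjustment. It was read at 317, 359 and 370.2 CPM in controls and at 283, 314 and 367 CPM at 10 mM, and 3 ethanol wells lay under every control while the other 3 lay among them. The log2 fold change was -0.14 (95% interval -0.26 to -0.03, unadjusted p = 0.0179 and adjusted p = 0.358 by edgeR). Abcg1 stood at 0.09 (edgeR adjusted p = 0.836), Nr1h2 at 0.00 (edgeR adjusted p = 0.998) and Nr1h3 at 0.44 (edgeR adjusted p = 0.612). Mylip, with 184 counts over the controls of this experiment and 207 over the 10 mM wells, could be tested and stood at 0.11 (95% interval -0.21 to 0.42, edgeR adjusted p = 0.884). Lpcat3 stood at -0.14 (95% interval -0.35 to 0.07, edgeR adjusted p = 0.696), with 1 low well at 10 mM of 41.0 CPM beside 5 of 53.7 to 59.1 CPM.

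The change of Apoe differed between the experiments. The difference of the log2 fold changes, 30 mM minus 10 mM, was 0.34 (SE 0.0867, 95% interval 0.17 to 0.52, adjusted p = 0.0118 by edgeR's test of the interaction over all 24 wells), where 3.28% of all genes tested were called (0.88% higher and 2.4% lower). When genes with low counts were kept in the fit this call was lost (0.29, edgeR adjusted p = 0.196). For Abca1 the difference was 0.28 (95% interval 0.08 to 0.48, unadjusted p = 0.00754, edgeR adjusted p = 0.115), and it passed under upper-quartile scaling (0.36, edgeR adjusted p = 0.0209) and with library size alone (0.31, edgeR adjusted p = 0.0460). Nr1h3 (-0.88, edgeR adjusted p = 0.212) and Mylip (-0.80, edgeR adjusted p = 0.262) had wide intervals that reached from -1.64 to -0.11 and from -1.57 to -0.04. Mylip, too low to test at 30 mM, entered this fit only through the wells of experiment 2. Abcg1, Nr1h2 and Lpcat3 lay between -0.02 and 0.11, with edgeR adjusted p from 0.787 to 0.975.

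**Figure D2:**
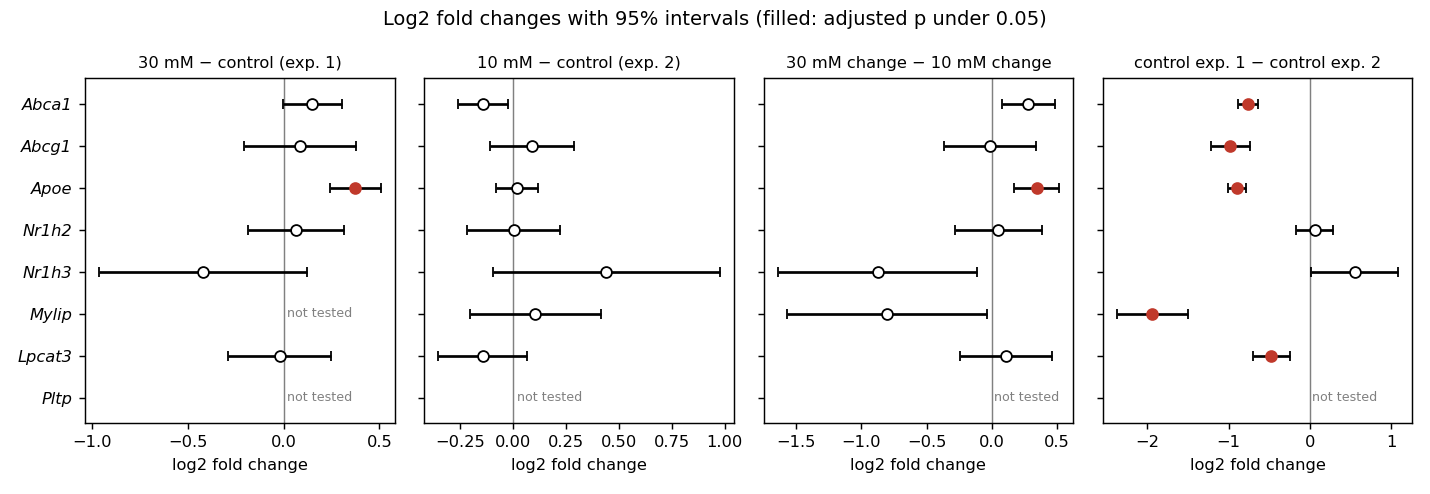
Log2 fold changes (x axis, a scale for each panel) with 95% intervals for the 8 genes (y axis) in the 2 ethanol comparisons, in their difference and between the control groups. Filled points had an edgeR adjusted p under 0.05: Apoe at 30 mM and in the difference, none at 10 mM, and 5 genes between the controls.

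Astrocyte markers moved with Apoe at 30 mM. The summed level of 12 astrocyte markers, such as the water channel Aqp4 and the glutamate transporter Slc1a2, was 4420 to 5566 CPM in the controls of experiment 1 and 6232 to 7598 CPM at 30 mM. The ranges did not overlap, and the mean rose by 26.5% (exact two-sided permutation p = 0.00216, the smallest that 6 wells against 6 allow, adjusted p = 0.0101 over 14 tests). Of the 11 astrocyte markers tested, 7 were called higher, Aqp4 by 0.56 and Slc1a2 by 0.62 on the log2 scale, and none lower. Among all genes tested 3.02% were called higher and 6.65% lower. The markers not called were Slc1a3 (0.14), Aldh1l1 (0.10), S100b (-0.02) and Fgfr3 (-0.11), so that 9 values were positive and 2 negative. None of the 12 was at 0 in a whole group. In bulk wells fewer cells of a type and less RNA per cell cannot be told apart, and neither can more cells and more RNA. At 10 mM the astrocyte sum was 5028 to 5745 CPM against 5028 to 5298 CPM (exact permutation p = 0.240, adjusted p = 0.336), and 0 of 11 markers were called by edgeR, 3 of them with an unadjusted p under 0.05.

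With the log2 astrocyte sum as a covariate, added after the data were seen, the log2 fold change of Apoe at 30 mM was 0.05 (SE 0.0978, edgeR adjusted p = 0.817) and the difference between the doses was 0.03 (edgeR adjusted p = 0.869). Under the same covariate 962 of 13235 genes were still called at 30 mM, against 1280 without it. The covariate and the ethanol groups do not overlap in experiment 1, so astrocyte markers and ethanol cannot be told apart there. Replicate 1 at 30 mM, the well with the lowest Apoe of its group, had an astrocyte sum of 6241 CPM, against a lowest of 6232 CPM in its group, and the highest oligodendrocyte sum, 15490 CPM against 9014 to 9498 CPM in the other 5.

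Microglial markers, which mark the other brain source of Apoe and Abca1, did not move with Apoe at 30 mM as a sum. The 14 markers together gave 252 to 421 CPM in the controls of experiment 1 and 261 to 423 CPM at 30 mM (exact permutation p = 0.848, adjusted p = 0.989). Of the 9 tested, 2 were called higher, Cx3cr1 by 1.07 and Ly86 by 0.62 on the log2 scale, where 3.02% of all genes were called higher. The 9 values were mixed, 5 positive and 4 negative, with Ctss (-0.25) and Trem2 (-0.24) the lowest. None of the markers was at 0 in a whole group. With the microglial sum as a covariate Apoe at 30 mM stood at 0.36 (SE 0.0620, edgeR adjusted p = 5.08e-05). At 10 mM the microglial sum was 3475 to 4054 CPM against 3211 to 3766 CPM (exact permutation p = 0.123, adjusted p = 0.191). There 2 of 12 tested markers were called higher, Cx3cr1 by 0.29 and Fcrls by 0.35, where 0.391% of all genes were called higher. Of the 12 values 9 were positive and 3 negative, with Tmem119 (-0.29) the lowest. A further pair of sums moved at 30 mM: oligodendrocyte markers rose by 33.6% and mural and fibroblast markers fell by 58.3% (exact permutation p = 0.00216 and adjusted p = 0.0101 for each), and their part in the Apoe result was not tested. The oligodendrocyte sum rose by 2583 CPM with all wells and by 1538 CPM without 30 mM replicate 1.

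**Figure D3:**
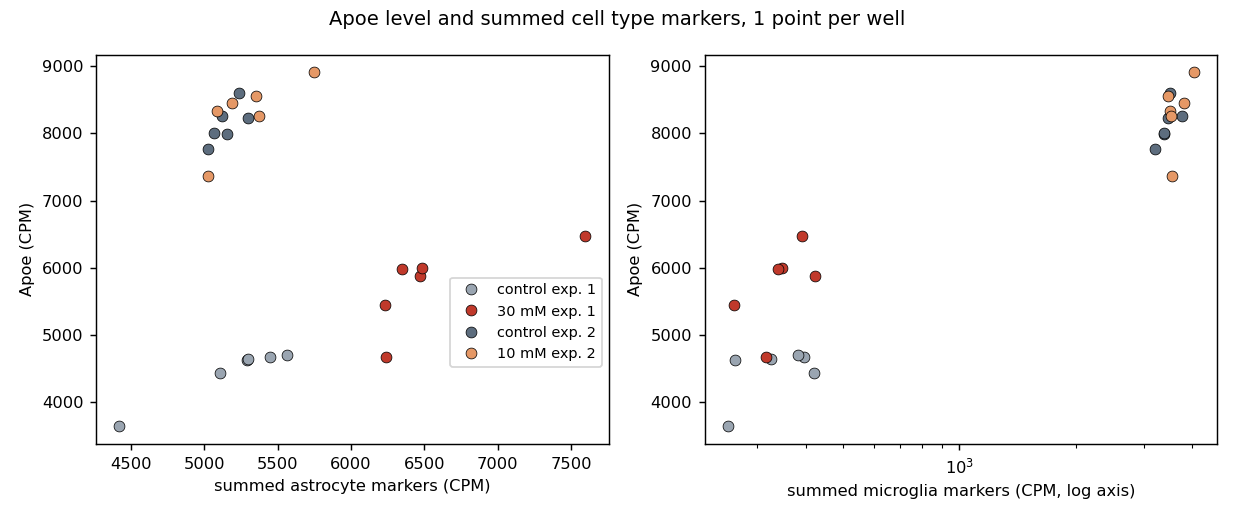
Apoe (y axis, CPM) against the summed astrocyte markers (left, x axis in CPM) and the summed microglial markers (right, x axis in CPM on a log axis), 1 point per well. The 30 mM wells lie at higher astrocyte sums than their controls (6232 to 7598 against 4420 to 5566 CPM) and within the same microglial range; the wells of experiment 2 lie at microglial sums of 3211 to 4054 CPM.

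More of these genes were called between the untreated cultures of the experiments than at either dose. Between the control groups 5 of 7 tested genes were called, all lower in experiment 1, where 43.6% of all genes tested were called (21.3% higher and 22.3% lower). Of the 5, Mylip passed the low-count filter only through the wells of experiment 2, so its direction was set by the filter. Apoe was 4449 ± 410 CPM in experiment 1 and 8142 ± 290 CPM in experiment 2 (SD, n = 6 each), which is -0.90 on the log2 scale (edgeR adjusted p = 5.13e-25, SE 0.0558). Abca1 was 210.2 ± 28.6 and 351 ± 19.0 CPM (SD, n = 6 each), which is -0.76 on the log2 scale (edgeR adjusted p = 1.29e-17, SE 0.0646).

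The lower values in experiment 1 extended to the second exporter and to both further targets. Abcg1 was read at 19.0, 30.2 and 34.5 CPM in the controls of experiment 1 and at 51.8, 55.3 and 62.2 CPM in those of experiment 2 (log2 fold change -0.98, SE 0.119, edgeR adjusted p = 5.88e-11). Mylip was read at 4.04, 5.64 and 7.99 CPM against 16.0, 20.7 and 30.9 CPM (log2 fold change -1.94, SE 0.219, edgeR adjusted p = 4.22e-12). The direction of Mylip was set by the low-count filter, as given above. For Apoe, Abca1, Abcg1 and Mylip no well of one group reached the other, as for 18.9% of all genes tested. Lpcat3 differed less, with a mean of 43.0 against 58.9 CPM (log2 fold change -0.47, SE 0.116, edgeR adjusted p = 0.000503), and its wells overlapped.

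Neither receptor was called between the control groups. Nr1h2 was 45.3 ± 5.93 CPM in the controls of experiment 1 and 42.9 ± 6.26 CPM in those of experiment 2 (SD, n = 6 each; log2 fold change 0.06, 95% interval -0.17 to 0.28, edgeR adjusted p = 0.717). Over all 4 groups its mean stayed between 42.9 and 46.8 CPM, beside an SD within a group of 3.68 to 9.87 CPM. Nr1h3 had 87 and 54 counts in these groups and a log2 fold change of 0.55 (95% interval 0.01 to 1.09, edgeR adjusted p = 0.0920).

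Microglial markers separated the control groups along with these genes. Their sum was 252 to 421 CPM in experiment 1 and 3211 to 3766 CPM in experiment 2, 10.2 times as much on average. All 12 tested markers were called lower in experiment 1, with a median log2 fold change of -3.35, where 22.3% of all genes tested were called lower. Of the 12, Tmem119, Aif1 and Fcrls passed the low-count filter only through the wells of experiment 2, so their direction was set by the filter. None was at 0 in a whole group. Astrocyte sums of the control groups differed by 0.01 on the log2 scale, with 7 of 11 markers called higher and 3 lower in experiment 1. With the microglial sum as a covariate 0 of the 8 genes were called between the controls by edgeR, and 46 of 13479 genes were called at all. Apoe then stood at -0.09 with an SE of 0.430 and Abca1 at 0.25 with an SE of 0.533, because the sum and the experiment nearly coincide. Microglial content, batch and experiment cannot be told apart here.

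In order of level, Apoe, Abca1 and Abcg1 were each lowest in the controls of experiment 1, next at 30 mM and higher in both groups of experiment 2. For each of the 3, the highest well of experiment 1 lay under the lowest well of experiment 2 (6476 under 7361 CPM for Apoe, 269 under 283.0 CPM for Abca1 and 37.0 under 42.5 CPM for Abcg1). The wells of Mylip lay apart as well (7.99 under 16.0 CPM). The share of all genes apart in this way over the 24 wells was not counted. Between the control groups alone 18.9% of all genes tested did not overlap. Within an experiment only the step of Apoe from controls to 30 mM passed the test. The other steps of these genes within an experiment were not called after adjustment. Among them, Abca1 at 10 mM had an unadjusted p of 0.0179 by edgeR. Mylip was lowest at 30 mM (3.45 ± 2.38 CPM) and highest at 10 mM (23.9 ± 4.68 CPM, SD, n = 6 each), with each ethanol group next to its own controls.

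The genes whose levels ran most like each of these were sought among 9629 genes with a mean log2 CPM of at least 4. Likeness was the lower of 2 Pearson correlations of log2 CPM, over the 12 wells of each experiment, and is a description, since wells share depth, batch and ethanol group. Apoe ran most like Myo6, a myosin motor (0.75), Lcat, the enzyme that esterifies cholesterol on lipoprotein particles (0.73), and Ei24 (0.71). Abca1 ran most like Gria3, a glutamate receptor subunit (0.75), Slc1a3, a glutamate transporter on the astrocyte list (0.69), and Stard7, a lipid transfer protein (0.67). Abcg1 ran most like Laptm5, a lysosomal protein of blood-derived and microglial cells (0.73), Npdc1 (0.70) and Bola3 (0.69). For Nr1h2 the nearest were Tmco1 (0.69) and Ccs (0.63), and for Lpcat3 they were Rab2a, Rgs19 and Id4 (0.71 each).

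Of 57 other genes of the pathway, 45 could be tested at 30 mM and 6 were called, 2 higher and 4 lower (13.3%, against 9.67% of all genes). Their median log2 fold change was -0.01, against 0.02 for all genes tested, and 0.08 for the 6 tested genes of the 8. Of the 45 values 22 were positive and 23 negative. Among 13 other LXR targets, 9 were tested and 2 were called, both lower: Arl4c, a small GTPase, and Scd1, a fatty acid desaturase. Among 13 partners and coregulators, such as the retinoid X receptors and the corepressor Ncor1, 12 were tested and 0 were called by edgeR, with 1 at an unadjusted p under 0.05. Of 7 enzymes that make or modify oxysterols only 3 could be tested, and 0 were called by edgeR, with 0 at an unadjusted p under 0.05.

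Arl4c was 157 ± 15.3 CPM in the controls of experiment 1 and 110 ± 14.4 CPM at 30 mM (SD, n = 6 each), with wells of 144 to 184 CPM against 96.4 to 137 CPM. Arl4c thus did not overlap between the groups, as 4.1% of all genes tested did not. On the log2 scale it changed by -0.52 (edgeR adjusted p = 1.83e-05, SE 0.0833) at 30 mM and 0.01 (edgeR adjusted p = 0.985) at 10 mM, and the difference was called (-0.54, edgeR adjusted p = 0.00158). Scd1 was called lower at both doses. At 30 mM it went from 463 ± 36.4 to 396 ± 47.7 CPM (SD, n = 6 each; log2 fold change -0.22, edgeR adjusted p = 0.0324). At 10 mM it went from 249 ± 22.3 to 192 ± 12.6 CPM with no overlap, as in 0.813% of all genes tested (SD, n = 6 each; log2 fold change -0.39, edgeR adjusted p = 8.88e-05), and it was the sole call among 46 tested genes of the 57 there.

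Of 17 sterol transport and storage genes tested at 30 mM, 3 were called, 2 higher and 1 lower (17.6%, against 9.67% of all genes). Scarb1, a receptor that exchanges cholesterol with lipoprotein particles, fell from 35.6 ± 2.72 to 22.6 ± 3.86 CPM (SD, n = 6 each; log2 fold change -0.64, SE 0.139, edgeR adjusted p = 0.00135), with no overlap, as in 4.1% of all genes tested. Clu, the second abundant apolipoprotein of brain, rose from 1600 ± 112 to 1925 ± 143 CPM (SD, n = 6 each; log2 fold change 0.27, SE 0.0589, edgeR adjusted p = 0.00126). Abca2, a lipid transporter abundant in oligodendrocytes, rose by 0.38 (edgeR adjusted p = 0.0138, SE 0.104), and Lrp8, a receptor for apolipoprotein E, fell by 0.30 on the log2 scale (edgeR adjusted p = 0.0365, SE 0.0948). With the astrocyte covariate the 30 mM calls of 4 of these genes were lost. Clu shrank to 0.06 (SE 0.0966, edgeR adjusted p = 0.731). Scarb1 stood at -0.69 (SE 0.264, edgeR adjusted p = 0.0962), Abca2 at 0.54 (SE 0.191, edgeR adjusted p = 0.0725) and Lrp8 at -0.31 (SE 0.179, edgeR adjusted p = 0.276). The values of Scarb1, Abca2 and Lrp8 did not shrink, and their calls were lost with a larger SE. Arl4c (-0.67, edgeR adjusted p = 0.00487) and Scd1 (-0.38, edgeR adjusted p = 0.0367) were still called.

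Several of these calls were lost when a single well was left out. Abca2 was 0.24 without the 30 mM well of replicate 1 (edgeR adjusted p = 0.0794) and 0.33 without control replicate 3 (edgeR adjusted p = 0.0574). The Scd1 call at 30 mM was lost without any one of 30 mM replicates 3 to 6 or control replicates 1, 3 and 4 (-0.21 to -0.19). The Lrp8 call was lost without any one of 30 mM replicates 3 to 6 or control replicates 2 to 6 (-0.31 to -0.25). Without control replicate 3 the count of called pathway genes was 3. At 10 mM the values were 0.24 for Abca2, 0.13 for Clu, 0.03 for Scarb1 and -0.10 for Lrp8, with edgeR adjusted p from 0.247 to 0.968. The difference between the doses was called for Scarb1 (-0.68, edgeR adjusted p = 0.0310), a call lost without 30 mM replicate 5 or 6, 10 mM replicate 1 or 4, or control replicate 6 of experiment 2 (-0.67 to -0.62), and with the astrocyte covariate (-0.57, edgeR adjusted p = 0.134).

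Between the control groups 26 of 46 tested pathway genes were called (56.5%, against 43.6% of all genes), 10 higher and 16 lower in experiment 1. Of the 9 other LXR targets tested, 3 were called lower, 3 higher and 3 not called (Fasn, Arl4c and Smpdl3a). The following examples were chosen after their values were seen. The 3 that were lower in experiment 1, as the microglial markers were, were Lpl, a lipase that macrophages make in quantity, at -3.25 (edgeR adjusted p = 2.8e-54), Apoc1, a small apolipoprotein, at -2.00 (edgeR adjusted p = 3.16e-20), and Mertk, a receptor for dying cells and debris, at -1.45 (edgeR adjusted p = 4.1e-18). Among the 3 that were higher, Scd1 differed by 0.87 (edgeR adjusted p = 8.23e-22) and Srebf1, the LXR-driven master regulator of lipid synthesis, by 0.33 (edgeR adjusted p = 0.000272). The wells of the control groups did not overlap in these 5 genes, nor in 18.9% of all genes tested.

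**Figure D4:**
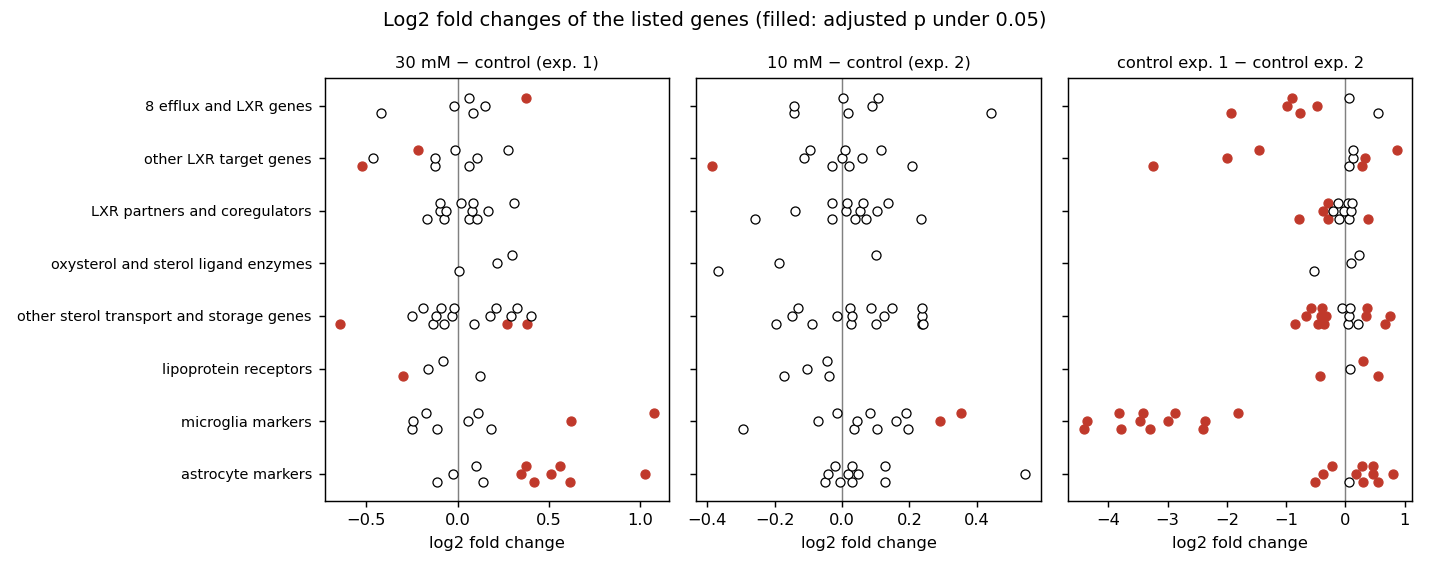
Log2 fold changes (x axis, a scale for each panel) of the 8 genes, the 5 pathway lists and the microglial and astrocyte markers (y axis, 1 point per tested gene) at 30 mM, at 10 mM and between the control groups. Filled points had an edgeR adjusted p under 0.05: 7 of 11 astrocyte markers are filled and higher at 30 mM, and all 12 microglial markers are filled and lower in the controls of experiment 1.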

How the data were processed

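Wells were grouped by the labels into 4 groups of 6. Per the submitters' processing notes, reads were trimmed with cutadapt 1.18 and aligned with STAR to GRCm39, while the counter, annotation, use of strand and treatment of PCR duplicates are not given in the sources used here. The authors deposited raw whole-number counts per gene for 24 wells, and a name table gave 52083 of 55359 identifiers (94.1%) a symbol. Counts of overlapping or antisense genes are therefore uncertain, and gene coordinates are not given, since the annotation here is of another build than the counts.

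Counts were tested with edgeR 4.0.16 in R 4.3.3 (quasi-likelihood, TMM, filterByExpr at a minimum count of 10, Benjamini-Hochberg over all genes tested), checked on simulated data. A gene was called at an adjusted p under 0.05. Fits of a dose held its 12 wells only. CPM values use TMM over all 24 wells. The SE of a log2 fold change and its 95% interval come from the same fit. For marker sums the test was an exact two-sided permutation, adjusted over 14 tests. Likeness used log2 CPM with a prior count of 2. The text names all 8 genes, and from the pathway lists those called at either dose; some items are not reported here. Members and lists were chosen with earlier results of these data known. Alternatives covered scaling, the low-count filter, DESeq2 1.42.0, voom (limma 3.58.1), a joint fit, thresholds, a replicate block, marker covariates and leaving out each well.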

Additional observations from a re-analysis of the deposited data

Results flagged for a closer look

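The genes and marker sums gave 60 groups of 6 values in which a single well could stand apart by Dixon's criterion. Chance would give 3 such wells if the values were normal and the groups independent, and 8 were found. Some flags share a well, and a single count beside wells without counts always stands apart. The 8 are therefore listed without reading an excess from them. Apoe was 3634 CPM in control replicate 6 of experiment 1, against 4435 to 4700 CPM in the other controls. Mylip was 7.90 CPM in 30 mM replicate 2, against 0.738 to 3.29 CPM in the other wells at 30 mM. Lpcat3 was 41.0 CPM in 10 mM replicate 1, against 53.7 to 59.1 CPM. Pltp was 0.69 CPM, a single count, in control replicate 1 of experiment 1 and 0 in the other 5.

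The summed astrocyte markers reached 7598 CPM in 30 mM replicate 2, against 6232 to 6484 CPM, and that well also had the highest Apoe of its group. The summed oligodendrocyte markers reached 15490 CPM in 30 mM replicate 1, against 9014 to 9498 CPM, and the summed neuron markers reached 620.3 CPM in the same well, against 507 to 546 CPM. The summed endothelial markers were 27.4 CPM in control replicate 4 of experiment 2, against 45.2 to 49.8 CPM.

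The change of Apoe at 30 mM exceeded that at 10 mM by 0.34 on the log2 scale, by edgeR's test of the interaction (adjusted p = 0.0118). Dose and batch cannot be told apart in it.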

How the results depend on the processing

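Of 455 values recomputed under the alternatives other than leaving out a well, 402 kept their direction and side of the threshold, 21 lost and 4 gained a call, and 28 changed sign. With the astrocyte covariate 0 of the 8 genes were called at 30 mM. For the difference between the doses 2 were called with upper-quartile factors and 2 with library size alone, and 0 without the low-count filter and 0 at an adjusted p under 0.01. With the astrocyte covariate 1 of 7 tested was called for the difference, which was Nr1h3 (-1.44, edgeR adjusted p = 0.0487) and not Apoe. That fit called 1531 of 14655 genes in all, against 481 without the covariate, and Nr1h3 had only 54 to 87 counts per group. Between the controls 0 were called with the microglia covariate. Leaving out a well gave 1 to 1 called genes of the 8 at 30 mM, 0 to 0 in experiment 2, 1 to 1 for the interaction and 5 to 5 between the controls, with Apoe at 0.33 to 0.43 at 30 mM and 0.28 to 0.38 for the difference. DESeq2 gave an adjusted p for only 2 of the 8 genes at 10 mM.

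The replicate numbers do not pair the wells: deviations of same-numbered wells correlated at -0.168 to 0.233 in experiment 1 and -0.0382 to 0.0360 in experiment 2, and 1 of 6 wells correlated best with its own number in each. With the replicate block 1 of the 8 genes was called at 30 mM, 0 at 10 mM, 1 in the interaction and 5 between the controls, as without it.

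Values that changed sign, none of them called after the change, were these on the log2 scale. At 30 mM Lpcat3 was 0.015 with upper-quartile factors, and Abca1 was -0.22, Abcg1 -0.093 and Nr1h2 -0.29 with the astrocyte covariate. At 10 mM, with upper-quartile factors, Nr1h2 was -0.0078 and Arl4c -0.0032, and with library size alone Nr1h2 was -0.0036. At 10 mM the microglia covariate gave Abcg1 -0.024, Apoe -0.015 and Nr1h2 -0.061, and the astrocyte covariate gave Abcg1 -1e-04, Apoe -0.019 and Nr1h2 -0.004. For the difference Abcg1 was 0.057 with upper-quartile factors, 0.0088 with library size alone, 0.017 with voom and 0.016 with the microglia covariate. There Nr1h2 was -0.004 without the low-count filter, and with the astrocyte covariate Abca1 was -0.089, Nr1h2 -0.24 and Lpcat3 -0.45. Between the controls Nr1h2 was -0.007 with upper-quartile factors and -9e-04 with library size alone, and the microglia covariate gave Abca1 0.25, Abcg1 0.64, Lpcat3 0.92 and Apoc1 2.19. The summed endothelial markers at 30 mM differed by 0.241 CPM with library size alone. The cause was not tested.

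Leaving out a well changed the sign of small values over these ranges. At 30 mM Nr1h2 ran from -0.026 to 0.16 and Lpcat3 from -0.11 to 0.058. At 10 mM Nr1h2 ran from -0.054 to 0.067, Mylip from -0.0036 to 0.24, Arl4c from -0.020 to 0.049 and Scarb1 from -0.038 to 0.10. For the difference Abcg1 ran from -0.11 to 0.046 and Nr1h2 from -0.061 to 0.14, and between the controls Nr1h2 ran from -0.0074 to 0.12. Differences of summed markers ran from -11.3 to 23.4 CPM for microglia, -2.48 to 2.40 CPM for endothelial cells and -12.2 to 11.0 CPM for neurons at 30 mM, and from -4.31 to 0.646 CPM for endothelial cells at 10 mM. Depth limits Pltp, Mylip at 30 mM and Nr1h3 most.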
